A study of Homo sapiens with 2 samples.

Results

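Near-stop 3'UTR peaks are the NUDT21 eCLIP peaks that lay in a 3'UTR within 300 nt downstream of a stop codon. They were 500 of the 20499 deposited peaks (2.44%, exact 95% interval 2.23 to 2.66) and 500 of the 3752 peaks whose midpoint lay in a 3'UTR and in no coding sequence (13.3%, 12.3 to 14.5). A peak was a member when its midpoint lay in a 3'UTR and in no CDS of GENCODE 44, in protein-coding genes other than readthrough genes. The midpoint also had to lie more than 150 nt from every annotated 3' end of the gene and within 300 nt past an annotated stop codon, in genome distance. The rule used positions only and no measured value. The remaining 3'UTR peaks formed 725 near-end peaks, within 150 nt of a 3' end, and 2527 interior peaks, which lay outside both limits.

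The study asked which RNAs NUDT21 contacts in cells of T-ALL, an acute leukemia of the T-cell lineage. The labels describe 2 samples of J-Gamma1, an established T-ALL line derived from Jurkat that lacks phospholipase C gamma 1: 1 library made with a NUDT21 antibody and 1 input. Cells of both samples carried no other treatment in the labels. They received UV-C light of 254 nm, in 2 irradiations of 400 mJ on ice, and were lysed for 15 min. The lysate was digested with 40 U of RNase I for 5 min at 37 °C, and libraries were then built by eCLIP, in which the RNA crosslinked to a pulled-down protein is sequenced. The antibody sample supplied every value below, and the input was not used here. With 1 library of 1 line there is no replicate, so values below are counts, medians and exact 95% intervals that cover counting error only, and no p-value was computed across peaks.

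NUDT21 (CFIm25) is the RNA-binding subunit of cleavage factor I. It recognises UGUA, a short motif that often lies upstream of the cleavage and polyadenylation site, and it is known for steering the choice between proximal and distal poly(A) sites. The stretch just past the stop codon is the start of the 3'UTR: it is present in every transcript that uses that stop, whichever downstream poly(A) site is chosen.

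The sequences that follow are 30-base windows of hg38 on the strand of the gene, from the members with the highest Score, so that a reader can see the stop codons the peaks lie beside and the UGUA copies inside them. In the stop windows the capitals mark the stop codon, and in the others they mark TGTA, which is UGUA in RNA. Distances count the bases from the end of the stop codon to the motif, starting from 1.
HMGB2 stop codon, chr4:173332065-173332094, minus strand: gaagatgaagaaTAAatggctatcctttaa
HMGB2 109 nt past the stop, chr4:173331955-173331984, minus strand: tcagtataaaaacTGTAcagatttttgtat
HMGB2 142 nt past the stop, chr4:173331922-173331951, minus strand: tgataagattctcTGTAgagaaaatacttt
STMN1 stop codon, chr1:25901001-25901030, minus strand: actgaagctgacTAAtttgttctgagaact
STMN1 53 nt past the stop, chr1:25900947-25900976, minus strand: aatatccaaagacTGTActggccagtgtca
HSP90AB1 stop codon, chr6:44253584-44253613, plus strand: gaagaagtcgatTAGgttaggagttcatag
HSP90AB1 34 nt past the stop, chr6:44253619-44253648, plus strand: aaacttgtgccctTGTAtagtgtccccatg
ANP32B 223 nt past the stop, chr9:98015641-98015670, plus strand: accccaacaaaatTGTAagcgttgttaggt
ANP32B 359 nt past the stop, chr9:98015777-98015806, plus strand: aacaaaaaagcttTGTAaataaaatcttaa
ELOVL5 71 nt past the stop, chr6:53269026-53269055, minus strand: cgttaacagctgcTGTAactagtctggcct
TOP1 stop codon, chr20:41123283-41123312, plus strand: gactatgagtttTAGccagtctcaagaggc
The last ANP32B window also holds AATAAA, a poly(A) signal, directly after its TGTA. TOP1 is shown for contrast, since its peak held no UGUA on either strand.

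Height was read from the deposited Score, whose unit is not stated and whose values lay on whole steps of 0.228, so heights are given here in steps. HMGB2, a DNA-bending chromatin protein, held the highest at 36 steps, with a fold enrichment over local background of 5.66. This peak was 497 nt long, reached 159 bases into the coding sequence, and had its midpoint 88 nt past the stop. Its FDR was 0.0518, the lowest among the members. STMN1 (stathmin), which destabilises microtubules, followed at 34 steps with a fold enrichment of 2.47, 25 nt past the stop. HSP90AB1, a cytosolic chaperone, stood at 31 steps with 2.01-fold enrichment, 50 nt past the stop. A high Score therefore did not always go with a high fold enrichment, since STMN1 and HSP90AB1 had lower ratios than many members of fewer steps.

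Next came ANP32B, an acidic histone chaperone, at 27 steps and 3.57-fold, with its midpoint at 227 nt. ZRANB2, a zinc finger splicing protein, had 20 steps and 4.66-fold at 148 nt. TOP1, the DNA topoisomerase that relaxes supercoils, had 19 steps and 4.86-fold at 113 nt. These 3 peaks began past the stop codon and held no coding base. ARGLU1, a cofactor of splicing and transcription, had 19 steps and 3.99-fold at 288 nt, close to the limit of the rule. ELOVL5, a fatty acid elongase, had 18 steps and 3.34-fold at 73 nt. PRKCSH (glucosidase II subunit beta), the chromatin protein NUCKS1 and AEBP1 each had 17 steps, at 23, 260 and 68 nt.

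The 15 highest members ended with UBXN4 of the endoplasmic reticulum, the lysophospholipid receptor GPR174, the splicing factor SRSF2 and the chromatin assembly subunit CHAF1A, each at 16 steps. CHAF1A shared both its Score and its fold enrichment of 2.32 with PDIA6, CD164 and MTDH, so the last place was a tie of 4 members. All 15 lay within the limit of the stop of the MANE Select transcript, the reference transcript chosen for each gene, and 7 of them covered a stop codon. UGUA on the gene strand was found in 8 of the 15 and was not found in 7. ANP32B held 7 copies, the most of any member, and HMGB2 held 6. The list had no strand, and 3 of these peaks also lay in the body of a gene on the opposite strand: ZRANB2 in ZRANB2-AS1, TOP1 in PLCG1-AS1 and SRSF2 in MFSD11. For these the 2 genes cannot be told apart as the source of the reads.

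**Figure D1:**
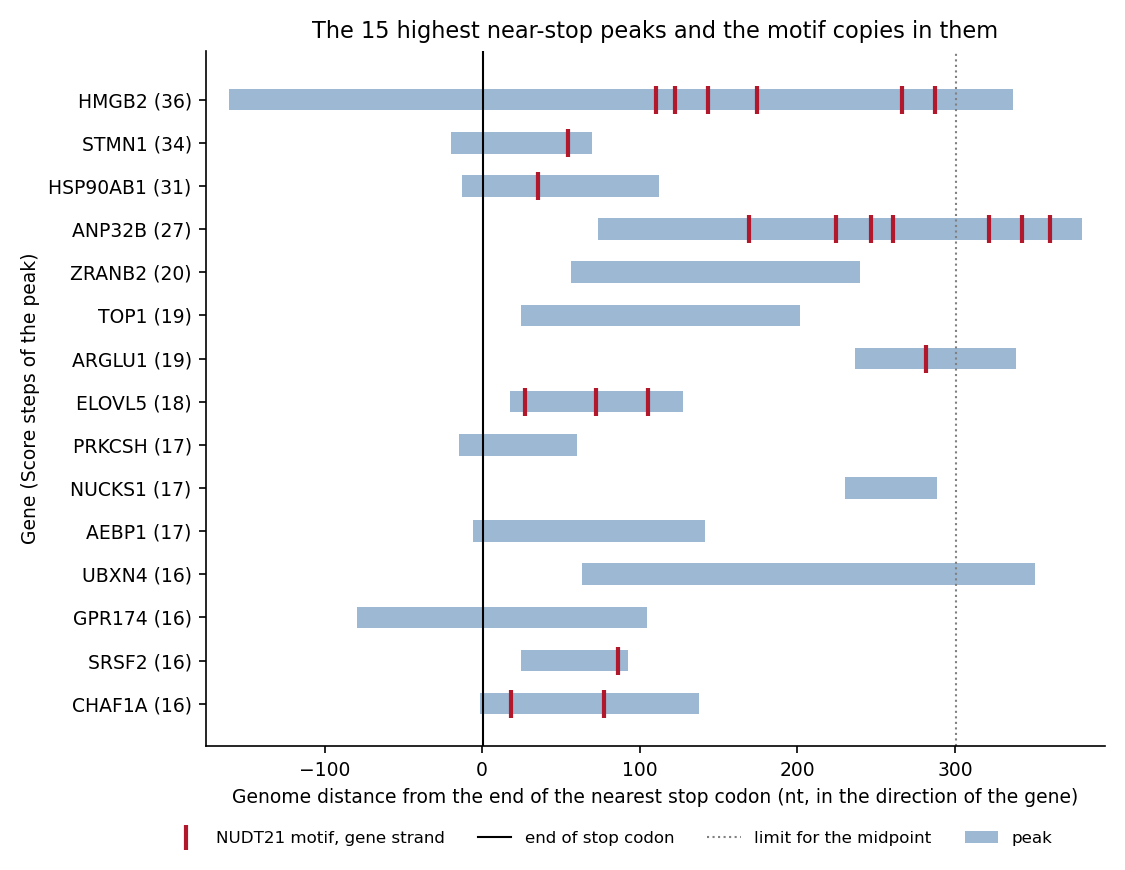
The 15 members with the highest Score, each drawn as a bar along its genome distance in nt from the end of the nearest stop codon (solid line), with its Score steps beside the gene name. Red ticks are UGUA copies on the gene strand: HMGB2 and ANP32B held 6 and 7, and 7 of the 15 held none.

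The members were taller than the peaks of the whole list, but not taller than those in CDS. The median of the members was 7 steps (quartiles 3 and 9), against 3 over all peaks and 5 in interior peaks. It was 7 in near-end peaks and 8 in peaks whose midpoint lay in CDS only. A Score of 5 or more steps was reached by 348 of the 500 (69.6%, 65.4 to 73.6), against a background of 42.3% over all peaks. In interior peaks it was reached by 51.8% (49.8 to 53.7), below the interval of the members. In near-end peaks it was 65.9% (62.4 to 69.4), an interval that overlaps that of the members. Above the members stood CDS-only peaks at 81.1% (80.0 to 82.3) and peaks both in CDS and 3'UTR at 85.2% (83.5 to 86.8). The background over all peaks includes 7801 intron peaks, of which 9.37% had 5 or more steps. Only 11 members had 17 steps or more, and 50 had 1 step.

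Fold enrichment gave the same order, but it is not a separate measure, since it rose with the Score. In the members its median was 1.17 at 1 step, 1.61 at 2 to 4, 2.16 at 5 to 8 and 2.72 at 9 to 16. The median of all members was 2.09 (interval 2.04 to 2.18), beside 1.84 (1.82 to 1.91) in interior peaks and 2.09 (2.04 to 2.11) in near-end peaks. In CDS-only peaks the median was higher, at 2.37 (2.32 to 2.37). A fold enrichment of at least 2 was reached by 295 members (59.0%, 54.5 to 63.3), against a background of 38.0% over all peaks. Among CDS-only peaks 73.8% reached it. The deposited p-value of every member was under 0.05, the highest being 0.0498. No member had an FDR under 0.05, against a background of 0.0927% (19 peaks of the whole list), and 494 of the 500 had an FDR of 1. A count of 0 of 500 allows a share of up to 0.6%.

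**Figure D2:**
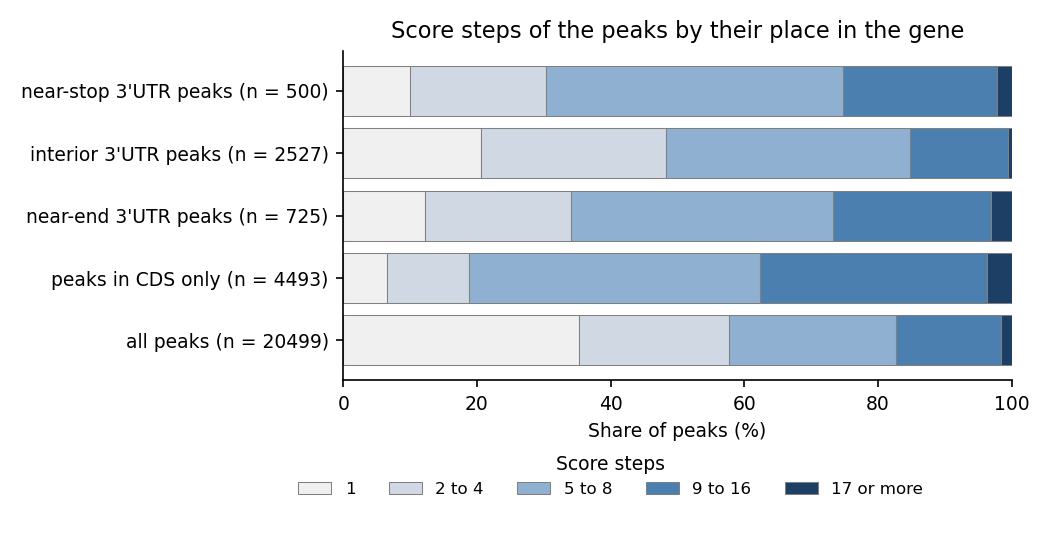
Share of peaks in each class of Score steps (horizontal axis, %), for near-stop, interior, near-end and CDS-only peaks and for all 20499 peaks. The pale segments of 1 to 4 steps were smaller in near-stop peaks than in interior peaks, and 69.6% of near-stop peaks had 5 or more steps.

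Length and height were linked within the members. They had a median of 98 nt (quartiles 64 and 184, range 48 to 497), where all peaks had a median of 155 nt, interior peaks 122 nt, near-end peaks 97 nt and CDS-only peaks 83 nt. Of the 127 members of at most 64 nt, 122 had 5 or more steps (96.1%), while of the 124 of 185 nt or more only 39 did (31.5%). The median length was 185.5 nt at 1 step, 222 nt at 2 to 4 steps and 70 nt at 5 to 8. It was 88 nt at 9 to 16 and 125 nt at 17 or more, so length did not fall steadily with height. In the whole list, 2001 neighbouring pairs of peaks started exactly 476 nt apart, and the next most common spacing occurred 22 times. A partner at that spacing was found for 66 members (13.2%, 10.4 to 16.5), against a background of 19.6% over all peaks. Members with a partner were low, with a median of 2 steps and 10 of 66 at 5 or more (15.2%), beside 77.9% of the 434 without one. What sets the spacing was not tested.

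A stop of the MANE Select transcript lay within the limit for 400 members (80.0%), otherwise one of another coding transcript for 66 (13.2%), and for 34 (6.8%) the stops within it came only from transcripts annotated as targets of nonsense-mediated decay. Nonsense-mediated decay chiefly destroys mRNAs whose stop codon lies well upstream of a splice junction. Members at MANE Select stops were the tallest group: 298 of 400 had 5 or more steps (74.5%, 69.9 to 78.7), with a median of 7. Beside other coding stops it was 34 of 66 (51.5%, median 5.5), and beside decay stops 16 of 34 (47.1%, median 3.5). In 413 members the midpoint lay in the 3'UTR of the MANE Select transcript, and in 80 it lay in one of its introns. Of these 80, 36 had 5 or more steps (45%, 33.8 to 56.5), beside 308 of 413 in the MANE Select 3'UTR (74.6%, 70.1 to 78.7).

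Among the members at decay stops, TRA2B, a splicing activator that is known for a poison exon, an exon whose inclusion brings in early stops, had 2 of these peaks. They had 13 and 9 steps, at 180 and 11 nt past decay stops, and were 3.32-fold and 2.67-fold enriched. RBM39 and SRSF11, both splicing factors, had 11 and 9 steps, and SNRNP70, the protein core of the U1 particle, had 9. RPS14, a protein of the small ribosomal subunit, had 9 steps at 106 nt. The O-GlcNAc transferase OGT also had 9. At the low end of this group 8 members had 1 step, among them those in FANCA, a DNA crosslink repair protein, and EFTUD2, a spliceosomal GTPase. In 33 of the 34 the midpoint lay in an intron of the MANE Select transcript, and FUBP1 was the exception, with 13 steps.

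The midpoints lay a median of 115 nt past the stop (quartiles 55.8 and 205), and 116 members lay in the first 50 nt. Of these 116, 88 had 5 or more steps (75.9%, 67.0 to 83.3), and at 51 to 100 nt it was 70 of 106 (66%, 56.2 to 75). At 251 to 300 nt it was 40 of 65 (61.5%, 48.6 to 73.3). The intervals of the 6 classes of 50 nt overlapped, and their medians were 6 or 7 steps. The nearest annotated 3' end of the gene lay farther off, at a median of 794.5 nt (quartiles 322 and 2171) from the midpoint. It was taken on either side, so it need not be the end downstream of the member.

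The limits cut through a continuous range of positions. Just inside the stop limit lay CNOT2 and EDEM3 at 299 nt (3 and 7 steps) and SLC5A3 at 298 nt (8 steps). Peaks just outside it included those in KHSRP and RIOK2 at 302 nt (6 and 2 steps). ZBTB24, TMEM62 and UBN1 lay just inside the end limit, 151 nt from a 3' end, with 5, 1 and 7 steps. DOCK2, PRC1 and GGT7 lay just outside it at 150 nt, with 6, 9 and 2 steps. In all, 307 near-end peaks were also within 300 nt of a stop.

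**Figure D3:**
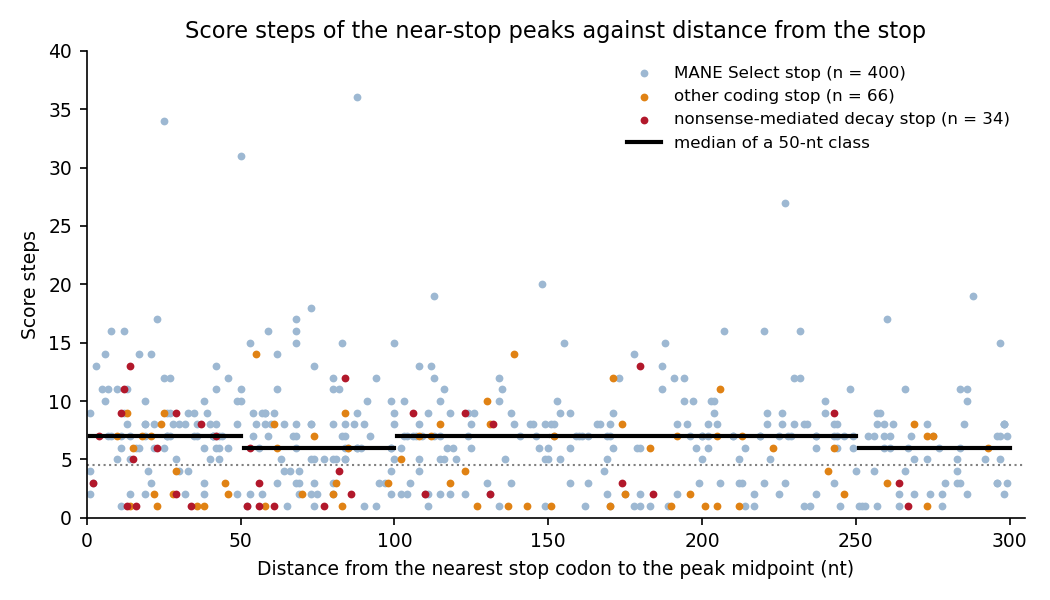
Score steps of the 500 members (vertical axis) against the distance in nt from the nearest stop codon to the midpoint, coloured by the transcript class of the stop. Black bars are medians of 50-nt classes, all 6 or 7 steps, and the dotted line separates peaks of 5 or more steps.

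Many members ran across the boundary itself. A base of coding sequence or of a stop codon was covered by 172 members (34.4%, 30.2 to 38.7), and a stop codon inside the limit was covered by 162 (32.4%). The members that overlapped CDS were longer, with a median of 166.5 nt beside 83 nt for the 328 clear of it. They were also lower: 100 of 172 had 5 or more steps (58.1%, 50.4 to 65.6), beside 248 of 328 (75.6%, 70.6 to 80.2). Within 300 nt upstream of the stop, 91 members (18.2%) had a further peak in CDS.

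Per length of sequence, near-stop 3'UTR held more midpoints than interior 3'UTR taken as a whole. In the 4152 genes with a peak in an exon there were 38.2 near-stop peaks per 100 kb of eligible sequence (35.0 to 41.7), beside 26.3 interior peaks (25.3 to 27.4) and 32.9 near-end peaks (30.5 to 35.4). The ratio of near-stop to interior was 1.45 (1.32 to 1.60), and for peaks of 5 or more steps it was 1.95 (1.73 to 2.20). Density was not even along the interior: past 2000 nt it was 18.4 per 100 kb, while between 501 and 750 nt it was 40.7. Against interior sequence more than 300 nt and up to 1000 nt past the stop, the ratio was 1.01 (0.906 to 1.13) for all peaks and 1.29 (1.12 to 1.48) for those of 5 or more steps. With peaks that touch CDS left out, over the same sequence, the ratio to the whole interior was 0.966 (0.858 to 1.08). In this last setting a peak centred close to the stop cannot avoid CDS, while the bases beside the stop were still counted, which lowers the ratio. Interior peaks that touch CDS were left out as well, which raises it.

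Along MANE Select transcripts the density fell across the stop codon. In 4135 transcripts of genes with an exonic peak, the last 300 nt through the stop codon held 79.5 midpoints per 100 kb (74.6 to 84.6). The 300 nt after it held 58.6 (54.3 to 63.1), and the next 300 nt held 46.3 (42.3 to 50.6). Between 300 and 600 nt upstream it was 69.7 (65.1 to 74.6). For peaks of 5 or more steps the values were 65.8 before the stop, 44 after it and 28.3 in the next 300 nt. The start of the 3'UTR was thus intermediate between coding sequence and the 3'UTR beyond, by intervals that did not overlap. Unlike the member counts, this profile also took peaks near 3' ends and peaks that are coding in another transcript.

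**Figure D4:**
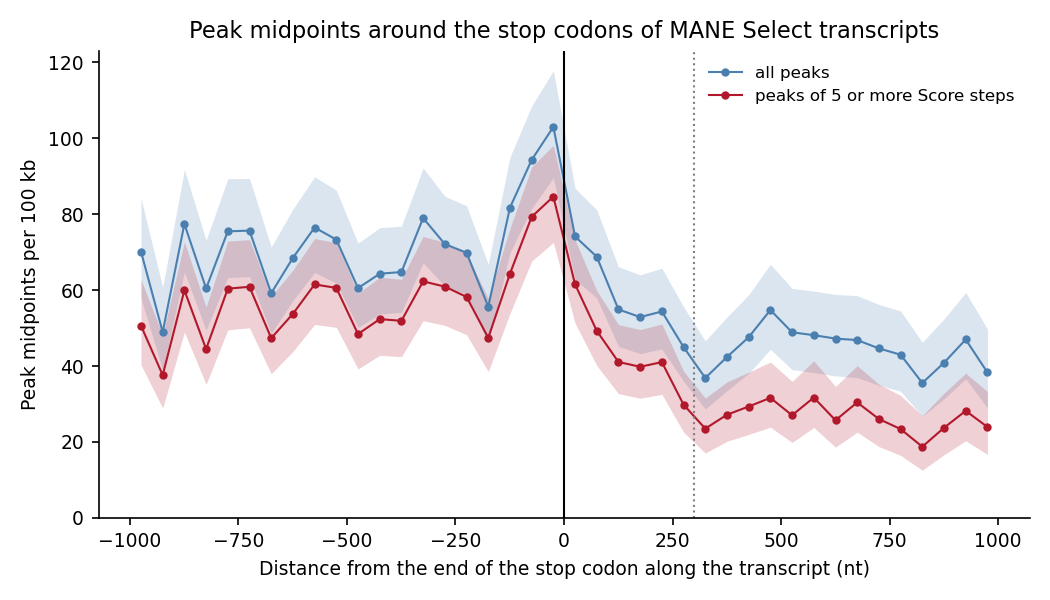
Peak midpoints per 100 kb (vertical axis) in 50-nt bins along MANE Select transcripts, from 1000 nt before to 1000 nt after the end of the stop codon (solid line), for all peaks and for peaks of 5 or more steps. Bands are exact 95% intervals and the dotted line marks 300 nt; density was highest just before the stop and fell from 79.5 to 58.6 across it in 300-nt bins.

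UGUA was found on the gene strand in 212 of the 500 members (42.4%, 38.0 to 46.9) and on the opposite strand in 166 (33.2%, 29.1 to 37.5). The gene-strand share was 52.3% (50.3 to 54.2) in interior peaks, 47.7% (44 to 51.4) in near-end peaks and 20.9% (19.7 to 22.1) in CDS-only peaks. The share in members rose with peak length, from 23.6% at up to 64 nt to 68.5% at 185 nt or more. Among peaks of 5 or more steps it was 36.2% (31.2 to 41.5) in members, 41.5% (38.8 to 44.2) in interior and 39.1% (34.7 to 43.7) in near-end peaks, with overlapping intervals. By distance the share was lowest in the first 50 nt (39 of 116, 33.6%, 25.1 to 43.0) and highest at 51 to 100 nt (52 of 106, 49.1%, 39.2 to 59.0). Those intervals overlapped.

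Counted per kb, UGUA was not detectably denser inside the members than beside them. The 3'UTR part of the members held 289 copies in 60.6 kb, or 4.77 per kb. Near-stop sequence of the same genes outside every peak held 4.89 per kb, a ratio of 0.975 (0.848 to 1.12). On the opposite strand the ratio was 0.908 (0.771 to 1.07). For members of 5 or more steps, against the same outside sequence, it was 1.07 (0.902 to 1.27). Over all members, the 11 other orders of the same bases had ratios of 0.834 to 1.03, and 8 of them lay below UGUA. Among members of 5 or more steps they had ratios of 0.833 to 1.05, and all 11 lay below UGUA. By ratio UGUA ranked 159 of the 256 tetramers, or 87 among members of 5 or more steps. An interval that includes 1 does not show that the densities were equal, and a ratio as large as 1.12 is within it. The lack of a higher density was not limited to the members. Against outside sequence of the same kind in all genes with an exonic peak, the ratio was 1.02 (0.903 to 1.15) in members. It was 1.01 (0.970 to 1.05) in interior and 0.882 (0.812 to 0.957) in near-end peaks.

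**Figure D5:**
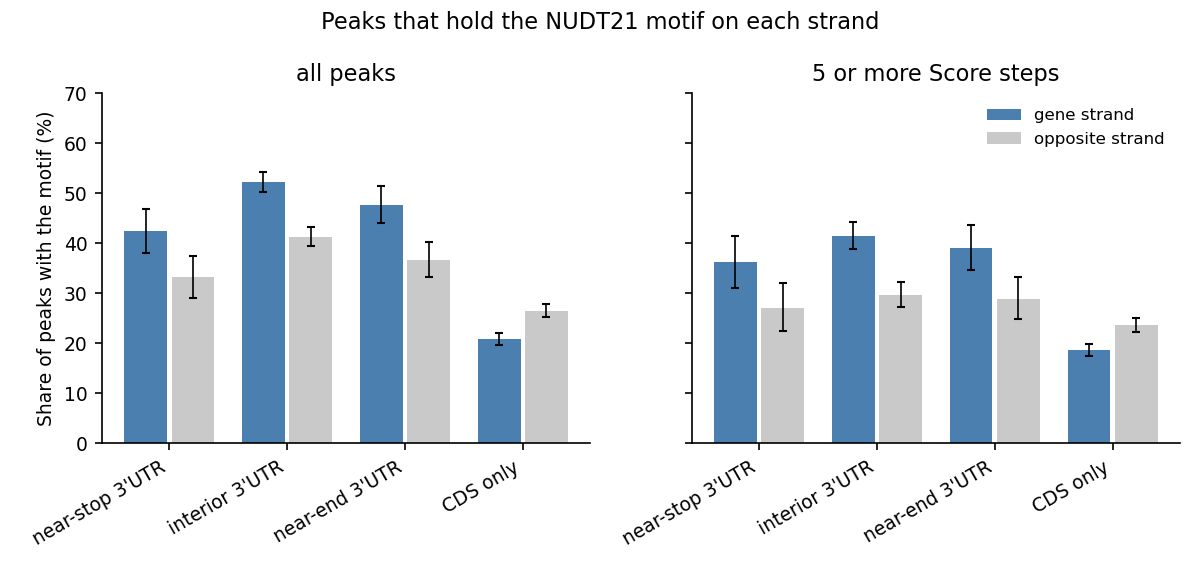
Share of peaks with at least 1 UGUA on the gene strand (blue) or the opposite strand (grey), in %, for near-stop, interior, near-end and CDS-only peaks, over all peaks (left) and peaks of 5 or more steps (right); error bars are exact 95% intervals. Over all peaks, near-stop peaks stood at 42.4% on the gene strand, between CDS-only peaks at 20.9% and interior peaks at 52.3%.

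Runs of 5 U were less dense than in the outside sequence of the same genes, by a ratio of 0.630 (0.551 to 0.718), and by 0.488 (0.401 to 0.590) at 5 or more steps. They were counted at every start, so a longer tract counted more than once, and the intervals do not allow for that. On the opposite strand the ratio was 1.19 (1.03 to 1.38). Lower density inside peaks was not limited to the members: against outside sequence of all genes with an exonic peak the ratio was 0.731 (0.647 to 0.822) in members, 0.662 (0.608 to 0.720) in near-end and 0.812 (0.781 to 0.843) in interior peaks. Members had 45.2% G or C inside and 44.3% outside, and less U, at 27.1% inside beside 29.7% outside. A small difference in U weighs more on a run of 5, and how much of the ratio it makes up was not tested. The poly(A) signals AAUAAA or AUUAAA occurred in 61 members (12.2%, 9.46 to 15.4), in 18.1% of interior and 26.6% of near-end peaks. Per kb they had 0.407 times the density in near-end peaks (0.304 to 0.538), but the rule kept members away from annotated 3' ends, where such signals lie. Against near-stop sequence outside peaks the ratio was 0.864 (0.639 to 1.16). AUUUA, the core of AU-rich elements, had a ratio of 0.910 (0.728 to 1.13). The tetramers with the highest ratios were GAAC at 1.61 and CGUC at 1.51, read from 256 ratios with no test.

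Over the 481 stops nearest to a member, UGA made up 47.8% (43.3 to 52.4), UAA 27.7% (23.7 to 31.9) and UAG 24.5% (20.7 to 28.6). The MANE Select stops of all genes with an exonic peak were UGA in 47.1%, UAA in 31.2% and UAG in 21.6%, each inside the corresponding interval.

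The 500 members fell in 479 genes, 458 with 1 and 21 with 2. This was 11.5% (10.6 to 12.5) of the 4152 genes with an exonic peak. Ordered by their highest peak, the genes with 2 were led by ARGLU1 (19 and 10 steps), FAM32A (14 and 7), FUBP1 (14 and 13), SRPK1 (14 and 11) and BRD3 (13 and 12). SRPK1 is a kinase of SR proteins, BRD3 a bromodomain reader of acetylated histones and FUBP1 a single-stranded DNA and RNA binder. In all 21 genes both members had 5 or more steps, the lowest having 6, beside 69.6% of all members. Short members mostly reached this height (96.1% of those of at most 64 nt), and peak length was not matched here. Of the 479 genes, 276 also had a peak in CDS, 204 an interior and 68 a near-end peak, and 109 had no other exonic peak. Genes without a member were counted only if they had another exonic peak, so they give no background for these counts. The median MANE Select 3'UTR was 1789 nt in these genes, 1836 nt in all genes with an exonic peak and 2747.5 nt in the 1621 other genes with a 3'UTR peak outside CDS.

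Cleavage and polyadenylation factors, the machinery in which NUDT21 works, held a member in 4 of the 14 listed genes with an exonic peak (28.6%, 8.39 to 58.1). PABPN1, the nuclear poly(A)-binding protein, had 10 steps at 203 nt and 2.99-fold enrichment. RBBP6, a cleavage cofactor, had 9 steps at 100 nt with 2 UGUA copies in the peak. CPSF6, the partner of NUDT21 in cleavage factor I, had 7 steps at 213 nt past an alternative stop and 2.09-fold enrichment (chr12:69269696-69269760). CSTF1, a subunit of the cleavage stimulation factor, had 6 steps at 102 nt. NUDT21 itself had none, its closest 3'UTR peak lying 771 nt past the stop.

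High mobility group proteins, which bend or open chromatin, held a member in 4 of 7 genes (57.1%, 18.4 to 90.1). Beside HMGB2 at 36 steps, HMGB1 had 13 steps at 187 nt, HMGN5 9 at 154 nt, and HMGN1 6 at 23 nt past a decay stop. SR splicing factors held 3 of 8 (37.5%, 8.52 to 75.5): SRSF2 with 16 steps, SRSF11 with 9 and SRSF10 with 8. Heat shock proteins and chaperones of the endoplasmic reticulum held 4 of 18 (22.2%, 6.41 to 47.6). These were HSP90AB1 with 31 steps, the disulfide isomerases PDIA6 and PDIA3 with 16 and 14, and the mitochondrial chaperonin HSPD1 with 15. Among hnRNPs it was 1 of 13, HNRNPDL with 15 steps at 53 nt, in an intron of the MANE Select transcript.

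Genes matched as translation initiation factors held 5 of 20 (25%, 8.66 to 49.1). EIF3A, the largest subunit of the scaffold eIF3, and EIF2S2, eIF2 beta, had 14 steps each, and EIF5B, which joins the ribosomal subunits, had 11. EIF2AK4 with 9 steps and EIF2AK1 with 8 are kinases of eIF2 and entered the list by name. Cytosolic ribosomal proteins held 1 of 9, RPS14. Proteins that bind or decay mRNA held 5 of 32 (15.6%, 5.28 to 32.8). KHSRP, a decay factor, had 11 steps at 266 nt, and the translational repressor PUM2 had 7 at 19 nt. ZFP36L1 and TIA1, which bind AU-rich and U-rich RNA, had 5 each.

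T-ALL driver genes held 2 of 20 (10%, 1.23 to 31.7): ETV6, a transcriptional repressor, with 9 steps at 240 nt, and CDKN1B (p27), an inhibitor of cell cycle kinases, with 7 at 42 nt. T-cell receptor signalling genes held 2 of 14 (14.3%, 1.78 to 42.8), the receptor chain CD3E with 12 steps at 134 nt and the adaptor LCP2 with 6 at 56 nt. DNA replication genes held 2 of 17, the decatenating enzyme TOP2A with 15 steps at 297 nt and the helicase subunit MCM3 with 11 at 248 nt. Cell cycle genes held 1 of 16, the proliferation marker MKI67 with 15 steps at 188 nt. The list shares are descriptions of small lists, to be read beside the 11.5% of all genes with an exonic peak.

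Ubiquitin-conjugating enzymes held 1 of 14 genes. This was UBE2J1, an enzyme of the endoplasmic reticulum, whose only exonic peak (chr6:89329615-89329662) had 7 steps and 1.94-fold enrichment at 41 nt. UBE2D3 and UBE2N had no member, and the closest 3'UTR peak of UBE2N lay 461 nt past the stop. UBE2D3 did have 3 exonic peaks at positions annotated as both CDS and 3'UTR, which the rule leaves out, and 2 in a 5'UTR. Ubiquitin ligases and cullins held 1 of 22, HUWE1 with 6 steps at 202 nt. MYC, HMGA1, CDK1, PCNA and BCL2 had no near-stop peak either, and HMGA1 had its closest 3'UTR peak at 1079 nt. RNA levels were not measured here, so the lack of a listed peak says nothing of how strongly a gene was expressed or bound.

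The peaks did not allow a check of the labelled cell type. An exonic peak was found in 2 of 12 T-cell marker genes, CD3E and PTPRC (CD45), which marks all white blood cells, in 0 of 5 B-cell and 0 of 5 myeloid markers, and in 4152 of all 19396 protein-coding genes. Some members could also draw reads from other genes, since 81 (16.2%) lay in the body of a gene on the opposite strand, and 14 lay in the 3'UTR of more than 1 gene. In the 81, 57 had 5 or more steps (70.4%, 59.2 to 80.0), close to the 69.6% of all members.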

How the data were processed

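Per the methods, the authors processed the reads of 1 eCLIP library with fastp, collapsed them by UMI, took out rRNA, mapped the rest to hg38 and called peaks with MACS2 at a stated q-value of 0.05. The aligner is not given in the sources used here, nor is the use of the input as control. The deposited list gives each peak a fold enrichment (a ratio to local background), a p-value, an FDR (q-value) and a Score, a coverage signal whose unit is not stated, but no strand. All deposited p-values were under 0.05, and 19 peaks had an FDR under 0.05. Read depth is unknown, so intervals cover counting error only. Strand and gene were taken from position.

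Members were found by midpoint in GENCODE 44 with the stop codon counted as CDS, and a midpoint in several genes went to the nearest stop. Shares have exact Clopper-Pearson intervals, densities exact Poisson, density ratios exact conditional binomial and medians order-statistic intervals, at 95%. Motifs were counted in hg38, and densities per kb over the 3'UTR bases of each peak. List shares are over the listed genes with an exonic peak. The members and lists were chosen with earlier results of these data known. Named were the 15 highest Scores (ties by fold enrichment), the 5 leading genes with 2 members, the most UGUA, the peaks nearest each limit, up to 4 genes per list and 11 genes of the study. CD164, MTDH, CNOT2, EIF2AK1 and the genes at decay stops outside these lists were named after their values were seen. Counting was tested on simulated data. Alternatives covered the stop limit, the transcripts, distance along exons, FDR, CDS overlap, height, spacing partners, strand and the motif window. Python 3.11.15, pandas 2.3.3, scipy 1.17.1 and pysam 0.24.0 were used.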

Additional observations from a re-analysis of the deposited data

How the results depend on the processing

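With 1 library, nothing here measures reproducibility, and read depth is unknown. No paired analysis was possible because only 1 library had a peak list. The number of near-stop peaks stayed within 1.5 times of 500 except with peaks touching CDS left out (328) and at an FDR under 0.05 (0), where no other value can be given. Values that left the interval reported for them are given next. The share with 5 or more steps moved to 65.0% with a stop limit of 500 nt, to 75.6% both on MANE Select transcripts alone and without peaks touching CDS, and to 77.9% without peaks that have a partner at the common spacing. Median fold enrichment moved to 2.36 at 5 or more steps and 2.19 without partners. The share with UGUA moved to 37.5% without peaks touching CDS, 36.2% at 5 or more steps, 31.2% in the central 100 nt, 61.6% with 50 nt added on each side, and 31.2% for UGUAA or UGUAU. The UGUA density ratio moved under none of its 13 alternatives with a value, among them the near-stop sequence of all genes with an exonic peak, which was chosen after seeing the data. The ratio of near-stop to interior density moved to 1.91 on MANE Select transcripts, 1.95 at 5 or more steps, 1.61 without partners and 1.01 against interior sequence within 1000 nt of the stop (an alternative chosen after seeing the data), and reversed to 0.966 without peaks touching CDS. Other alternatives stayed within the reported intervals: 4 for the share with 5 or more steps, 7 for the median fold enrichment, 7 for the UGUA share and 5 for the density ratio.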
